A study of Mus musculus with 12 samples.

Results

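The unfolded protein response and the integrated stress response were followed through 40 listed genes of both pathways, grouped by the ATF6, IRE1 and PERK arm, in mIMCD3 cells, a mouse line from the inner medullary collecting duct of the kidney. Of the 40 listed genes, 39 were found among the 47642 genes of the deposited table. The remaining name, *Vldlr-as1*, was not matched and was not analysed here. The ATF6 arm with the chaperones of the endoplasmic reticulum (ER) held 13 genes, the IRE1-XBP1 arm with ER-associated degradation held 12, and the PERK arm with the integrated stress response held 14. The assignment followed the textbook role of each gene. Several genes answer to more than 1 arm, so the groups are a convention.

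The study compared 3 genotypes in bulk RNA sequencing with 4 libraries each. Wt cells carried both polycystin genes, Pkd1-/- cells carried a CRISPR deletion of the whole *Pkd1* gene on both alleles, and Pkd2-/- cells carried a TALEN-made deletion of an internal part of *Pkd2*. The polycystins are the products of the genes mutated in autosomal dominant polycystic kidney disease. The parent line came from mice with the SV40 early region as a transgene, which keeps the cells dividing, so all 3 genotypes share it. Each mutant was 1 clone, and the libraries of a genotype were separate culture dishes harvested 4 days after confluency. Clone and genotype therefore cannot be told apart, and the p-values below cover the spread between dishes alone. The comparisons share libraries: both mutants were set against the same 4 Wt libraries, and the values are given side by side for that reason.

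Proteins that enter the ER fold with the help of chaperones, and an excess of unfolded protein is sensed by 3 proteins of the ER membrane. ATF6 is cut to release a transcription factor for chaperone genes, IRE1 (gene *Ern1*) splices the *Xbp1* messenger RNA so that it encodes an active factor for ER-associated degradation genes, and PERK (gene *Eif2ak3*) phosphorylates the translation factor eIF2alpha. That phosphorylation is shared with GCN2 (gene *Eif2ak4*), a kinase that senses amino acid shortage, and it raises the translation of ATF4, a transcription factor for genes of amino acid supply, redox balance and cell death. Messenger RNA levels do not show *Xbp1* splicing, eIF2alpha phosphorylation or ATF6 cleavage.

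The DNA elements of the arms were looked up in the promoter windows of the members. The windows came from RefSeq on build GRCm38.p6 and ran from 250 bases before to 50 bases after the annotated start, and 34 of the 39 members had one. Each motif was searched on both strands. The C/EBP-ATF response element TGATGNAA, which ATF4 binds, occurred in 3.97% of all 32851 windows, and 5 members held it. They were *Chac1*, *Trib3*, *Slc7a11* and *Asns* of the PERK arm and *Herpud1*. The ER stress response element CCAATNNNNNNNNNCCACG, which ATF6 uses with the factor NF-Y, occurred in 0.119% of all windows, and 9 members held it. They were *Hspa5*, *Hsp90b1*, *Calr*, *Canx*, *Pdia6* and *Creld2* of the ATF6 arm and *Dnajc3*, *Derl3* and *Syvn1* of the IRE1 arm. None of the 13 PERK arm members with a window held the ER stress response element. None of the 10 ATF6 arm members with a window held the C/EBP-ATF element. Both elements are rare enough that 0 matches in so few windows are likely, so these 0 counts do not set the arms apart. A match is a run of letters and not a measured binding site. The element ATTGGNCCACG, a second form of the ER stress response element, occurred in 0.0365% of windows and in *Herpud1* among the members. The unfolded protein response element TGACGTGG, in 0.676% of windows, occurred in no member window.

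Windows of 7 members that held an element are printed, with the element in capitals and written on the strand of the gene. *Atf5*, *Ddit3*, *Psat1* and *Ppp1r15a*, whose results are given below as well, held none of the searched elements in their windows. An element on the opposite strand appears as its reverse complement. The 4 genes of the PERK arm were shown at chr2:119351019-119351086 on the plus strand for *Chac1*, at chr2:152344028-152344057 on the minus strand for *Trib3*, at chr6:7693214-7693243 on the minus strand for *Asns* and at chr3:50443623-50443709 on the minus strand for *Slc7a11*.
Chac1: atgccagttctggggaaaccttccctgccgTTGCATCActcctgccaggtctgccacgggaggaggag
Trib3: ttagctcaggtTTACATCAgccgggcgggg
Asns: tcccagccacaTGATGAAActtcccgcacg
Slc7a11: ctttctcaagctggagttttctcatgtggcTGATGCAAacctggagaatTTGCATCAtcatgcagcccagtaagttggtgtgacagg
*Slc7a11* held 2 elements in opposite orientation, beginning 66 and 47 bases before the start. The element of *Trib3* began 15 bases after the RefSeq start but lay upstream of the start of the gene in GENCODE M21. Those of *Asns* and *Chac1* began 23 and 193 bases before the RefSeq start, and that of *Asns* lay inside the gene in GENCODE M21.

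The windows of *Hspa5* at chr2:34772020-34772049 and of *Derl3* at chr10:75893212-75893290, both on the plus strand, hold an ER stress response element. It begins 65 and 156 bases before the RefSeq start, and that of *Hspa5* lay inside the gene in GENCODE M21. The window of *Herpud1*, at chr8:94386287-94386417 on the plus strand, is shown because it held elements of both kinds, with the C/EBP-ATF element 112 bases and the second form of the ER stress response element 52 bases before the start.
Hspa5: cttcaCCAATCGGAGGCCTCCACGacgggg
Derl3: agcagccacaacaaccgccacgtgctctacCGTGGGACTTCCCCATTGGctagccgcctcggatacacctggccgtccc
Herpud1: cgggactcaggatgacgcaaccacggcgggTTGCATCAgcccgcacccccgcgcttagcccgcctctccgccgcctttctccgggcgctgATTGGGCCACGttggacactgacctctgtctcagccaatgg

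The libraries were close in size, with 25966273 to 28027792 normalized counts each, where a normalized count is the number of reads on a gene after the authors' scaling for depth. *Pkd1* averaged 782 normalized counts in Wt, 41.8 in Pkd1-/- and 1209 in Pkd2-/- cells, while *Pkd2* averaged 3971, 2711 and 3986, and the exons left after the partial deletion of *Pkd2* still gave reads. The 13 markers of collecting duct and tubule epithelium summed to 77390 to 90936 normalized counts per library. Most of the sum came from *Epcam*, *Krt18*, *Cdh1*, *Krt8* and *Krt7*. *Aqp2*, the vasopressin-regulated water channel of the collecting duct, was at 0 in every library. In Wt cells *Aqp3* and *Scnn1a* averaged 1.5 and 75.5. *Gata3* averaged 227 in Wt, 48.5 in Pkd1-/- and 354 in Pkd2-/- cells. The sum of the 3 proximal tubule markers was 480 to 557 in Wt, 33 to 71 in Pkd1-/- and 742 to 1222 in Pkd2-/- cells, nearly all of it *Lrp2*, with *Slc34a1* at 0 throughout. The 6 fibroblast markers summed to 32 to 58, 89 to 102 and 15 to 141, and those of endothelium, immune cells and podocytes to at most 9, 73 and 8 in any library. The proximal tubule sum, several epithelial markers such as *Gata3* and, in Pkd1-/- cells, the fibroblast sum moved with genotype. Their part in the results below was not tested. The rise of the fibroblast sum was nearly all *Col3a1*, at 62 to 69 in Pkd1-/- and 3 to 7 in Wt libraries. *Dcn*, another fibroblast marker, averaged 20.0 in Pkd1-/- and 25.75 in Wt cells. In bulk samples a smaller share of cells of a type and less RNA per cell cannot be told apart.

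Pkd2-/- cells held higher levels of most of the stress response genes than Wt cells, and the difference was largest in the PERK arm and integrated stress response group. With limma on log2(normalized count + 1), 31 of the 39 members were higher and 1 was lower in Pkd2-/- than in Wt cells at an adjusted p under 0.05, where 20.0% of the 18552 tested genes were higher and 22.3% lower. All 39 members averaged over 100 normalized counts, and among all tested genes at that level 30.2% were higher and 29.1% lower. With a log2 fold change of at least 1 as a further threshold, 9 members were higher and 0 lower, against 3.24% and 6.38% of tested genes. Among tested genes averaging at least 100 normalized counts these shares were 2.44% and 3.24%. At an unadjusted p under 0.05 the single lower member was still *Xbp1*. The median log2 fold change was 0.44 over the members and -0.01 over all tested genes. The arm counts in Pkd2-/- cells below stand beside these shares. The members were chosen with earlier results of these data known, so the shares give a scale and are no test of the list.

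Pkd1-/- cells differed less from Wt cells and in both directions. Of the 39 members, 11 were higher and 7 lower at an adjusted p under 0.05, where 13.6% of tested genes were higher and 13.5% lower. Among tested genes averaging at least 100 normalized counts the shares were 18.6% and 18.4%, and the members' median log2 fold change was 0.05. The share of members that were lower was near the 18.4% and is no result about the members. The arm counts in Pkd1-/- cells below stand beside the same shares. Those of IRE1 arm genes that rose and of PERK arm genes that fell were near them. No member passed both thresholds in either direction, against 2.96% of tested genes that were higher and 3.28% that were lower. For tested genes averaging at least 100 normalized counts these shares were 1.07% and 1.77%. *Sesn2* lay just short of the fold threshold at -0.997, and the count of lower members past it was 1 in place of 0 without Wt 1 or without any 1 of Pkd1-/- 1, 2 and 3.

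Between the mutants, 29 members were higher and 0 lower in Pkd2-/- than in Pkd1-/- cells at an adjusted p under 0.05, against 21.9% and 24.3% of tested genes. Among tested genes averaging at least 100 normalized counts these shares were 31.7% and 31.4%. With the fold threshold 8 were higher and 0 lower, against 4.53% and 7.23%, or 3.49% and 3.47% at that level. The count of 0 lower members became 1 without Pkd2-/- 1, when *Xbp1* passed. At an unadjusted p under 0.05, *Xbp1* was the 1 lower member.

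**Figure D1:**
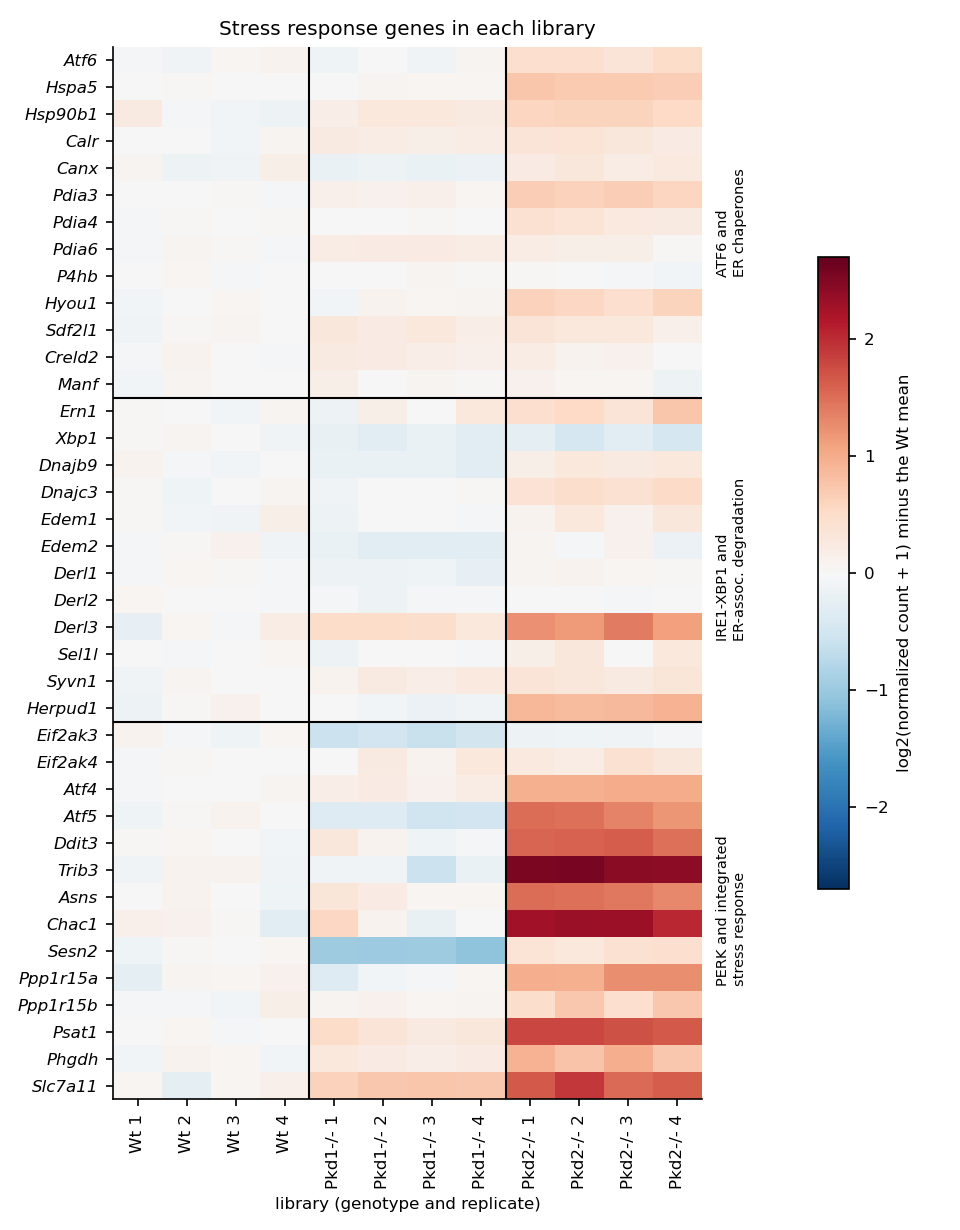
Level of each of the 39 members (rows, by arm) in each of the 12 libraries (columns), as log2(normalized count + 1) minus the mean of the 4 Wt libraries. Red is above and blue below the Wt mean, and the 4 Pkd2-/- columns are reddest among the PERK arm genes, where *Trib3* averaged 2.49 above Wt.

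The transducers and factors themselves were compared first, per kilobase of exon, which allows levels of different genes to be set side by side. In Wt cells *Atf4* was the highest of the 8 at 3193 normalized counts per kilobase (range over libraries 3092 to 3363), followed by *Xbp1* at 1460 (1367 to 1536), *Ddit3* at 579 (551 to 602), *Atf5* at 430 (395 to 457), *Eif2ak3* at 383, *Atf6* at 305, *Ern1* at 82.2 and *Eif2ak4* at 62.1. In Pkd2-/- cells the order changed, with *Ddit3* at 1728 (1626 to 1802) above *Xbp1* at 1139 (1066 to 1238) and *Atf5* at 1122 (978 to 1224). The libraries of *Xbp1* and *Atf5* overlapped there, and those of *Ddit3* lay above both.

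*Atf6*, the sensor that becomes a chaperone gene factor, had 2718, 2622, 2910 and 3017 normalized counts in Wt, 2592, 2807, 2640 and 2959 in Pkd1-/- and 3828, 3867, 3585 and 3969 in Pkd2-/- cells. The Pkd1-/- libraries overlapped those of Wt and the Pkd2-/- libraries lay above both. The log2 fold change against Wt was 0.44 (SE 0.06, limma adjusted p = 3.26e-06) in Pkd2-/- and -0.03 (SE 0.06, adjusted p = 0.714) in Pkd1-/- cells.

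*Hspa5* encodes BiP, the main ER chaperone, which also holds the sensors inactive. Its normalized counts were 31778, 32774, 31977 and 32368 in Wt, 32375, 33710, 33411 and 33625 in Pkd1-/- and 54317, 52221, 52412 and 50919 in Pkd2-/- cells. Every Pkd2-/- library was above every other library. The rise was 1.63-fold against Wt (log2 fold change 0.70, SE 0.04, adjusted p = 7.97e-11), the largest of the ATF6 arm, while the Pkd1-/- cells gave 0.05 (SE 0.04, adjusted p = 0.461).

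Of the 13 genes of the ATF6 arm, 10 rose and 0 fell in Pkd2-/- cells, with a median log2 fold change of 0.31 and none past 1. *Pdia3* and *Hyou1*, a disulfide isomerase and an HSP70-type chaperone of the ER, rose by 0.64 (SE 0.04) and 0.56 (SE 0.05) in log2 fold change. *Hsp90b1*, the ER member of the HSP90 family, rose by 0.58 (SE 0.06), with 15.67% of its exon bases shared with other annotated genes. *Pdia4* at 0.32, *Calr* at 0.31, *Sdf2l1* at 0.27 and *Canx* at 0.25, which encode a disulfide isomerase, calreticulin, a chaperone cofactor and calnexin, rose by less. The call for *Pdia6*, another isomerase, at 0.13 (SE 0.05, adjusted p = 0.0223) was made in 7 of 12 fits that each left out 1 library.

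*P4hb*, the most studied disulfide isomerase, stood at -0.02 (95% interval -0.11 to 0.07) in Pkd2-/- cells. *Manf*, a secreted survival factor released on ER stress, stood at 0.02 (-0.10 to 0.14), and *Creld2*, an isomerase-like ER protein, at 0.10 (-0.004 to 0.211). These 3 did not pass the test, although the *Creld2* window held the same ER stress response element as that of *Hspa5*.

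In Pkd1-/- cells 5 genes of the arm rose and 0 fell, with a median of 0.07. *Canx* at -0.16 (adjusted p = 0.0564) was not called, but it was called lower without Wt 2 (-0.21, adjusted p = 0.0127) or without Wt 3 (-0.19, adjusted p = 0.0375). With all libraries kept it was called lower under a filter at a mean of 10, TMM rescaling or a replicate block. The 0 thus rests on those libraries and on the processing. *Pdia3* at 0.11 (adjusted p = 0.0586) was not called either and was called higher without Pkd1-/- 4 (0.13, adjusted p = 0.0411) or Pkd2-/- 4 (adjusted p = 0.0476). *Sdf2l1* rose by 0.24 (SE 0.05, adjusted p = 0.00154) and *Hsp90b1* by 0.24 (SE 0.06, adjusted p = 0.0076), the 2 largest values of the arm. *Sdf2l1* had 1923, 2114, 2151 and 2040 normalized counts in Wt and 2525, 2392, 2493 and 2335 in Pkd1-/- cells, so the groups did not overlap. *Hsp90b1* had 27136 in Wt 1 and 20789 to 22268 in the other Wt libraries, and Wt 1 lay among the 4 Pkd1-/- libraries at 25661 to 27734. The other 3 that rose were *Pdia6* at 0.22, *Calr* at 0.20 and *Creld2* at 0.19. Of the 5 genes that rose, 4 did not differ between the mutants at the threshold, and *Hsp90b1* was higher in Pkd2-/- cells by 0.34 (SE 0.06).

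*Ern1*, the gene of the sensor IRE1, had 682, 663, 636 and 705 normalized counts in Wt, 606, 747, 676 and 819 in Pkd1-/- and 925, 978, 859 and 1133 in Pkd2-/- cells. The Pkd2-/- libraries were all above the others, and the log2 fold change against Wt was 0.53 (SE 0.09, adjusted p = 9.06e-05). *Xbp1*, the target that IRE1 splices, went the other way.

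*Xbp1* had 4812, 4988, 4723 and 4441 normalized counts in Wt, 4143, 3813, 4200 and 3899 in Pkd1-/- and 4021, 3476, 3833 and 3463 in Pkd2-/- cells. Both mutants lay below Wt without overlap, and they overlapped each other. The log2 fold change was -0.24 (SE 0.06, adjusted p = 0.00286) in Pkd1-/- and -0.36 (SE 0.06, adjusted p = 3.2e-05) in Pkd2-/- cells. It was the single member that was lower in Pkd2-/- than in Wt cells. The deposited gene counts do not separate the spliced from the unspliced form.

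Of the 12 genes of the IRE1 arm, 8 rose and 1 fell in Pkd2-/- cells, with a median log2 fold change of 0.22. *Derl3*, a derlin of the ER membrane used in retrotranslocation (chr10:75893413-75895941, plus strand), was the single member of the arm past both thresholds. It had 273, 329, 306 and 366 normalized counts in Wt, 447, 447, 442 and 386 in Pkd1-/- and 747, 702, 836 and 688 in Pkd2-/- cells. The 3 genotypes did not overlap, with Pkd1-/- between the others. The log2 fold change was 1.22 (SE 0.09, adjusted p = 2.52e-09) in Pkd2-/- and 0.44 (SE 0.09, adjusted p = 0.0011) in Pkd1-/- cells, the largest of the arm in either comparison with Wt.

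*Herpud1*, which recruits the degradation complex and held an element of either kind in its window, had 1570, 1766, 1860 and 1716 normalized counts in Wt, 1728, 1645, 1540 and 1607 in Pkd1-/- and 3223, 3125, 3145 and 3293 in Pkd2-/- cells. Only the Pkd2-/- libraries stood apart, by a log2 fold change of 0.89 (SE 0.05, adjusted p = 1.57e-10) against Wt. *Dnajc3*, an ER co-chaperone, rose by 0.45 (SE 0.05), and *Syvn1*, the ubiquitin ligase HRD1, by 0.30 (SE 0.05). The derlins *Derl1* and *Derl2* stood at 0.07 and -0.02 and the mannosidase-like *Edem2* at -0.01, all 3 without a call. *Edem1* at 0.20 and *Sel1l* at 0.19 were called, and the calls held in 11 and 9 of the 12 fits that left out 1 library.

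In Pkd1-/- cells 2 genes of the IRE1 arm rose and 4 fell, with a median of -0.06. *Derl3* and *Syvn1* (0.20) rose. *Xbp1*, *Edem2* (-0.25), *Dnajb9* (-0.21) and *Derl1* (-0.16) fell. *Dnajb9*, a co-chaperone that is a classical target of spliced XBP1, had 1670, 1537, 1485 and 1590 normalized counts in Wt, 1394, 1379, 1385 and 1263 in Pkd1-/- and 1739, 1917, 1859 and 1902 in Pkd2-/- cells. It thus fell in one mutant and rose in the other, by 0.24 (SE 0.05, adjusted p = 0.00124) in Pkd2-/- cells, and the mutants differed by 0.45 (SE 0.05, adjusted p = 1.09e-06).

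**Figure D2:**
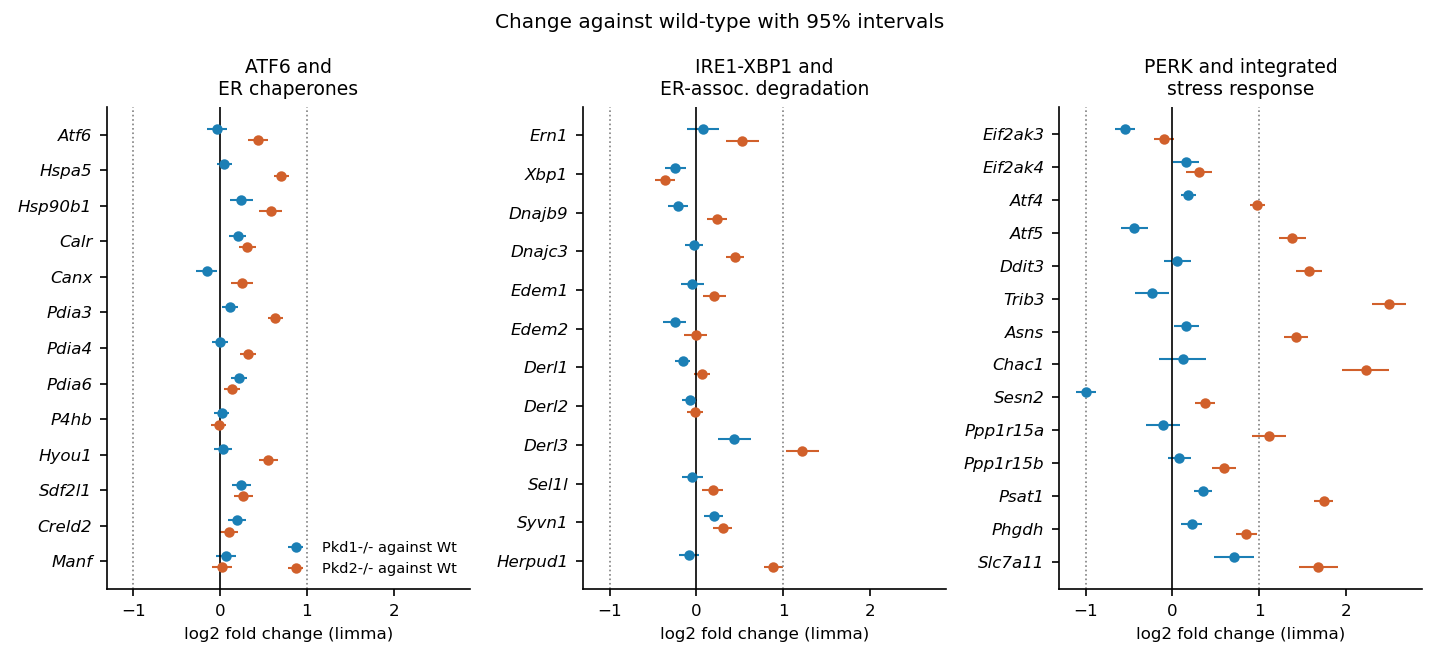
Log2 fold change of each member against Wt from limma (horizontal axis), with 95% intervals as bars, for Pkd1-/- (blue) and Pkd2-/- cells (orange), 4 libraries per genotype; dotted lines mark a log2 fold change of 1 in either direction. In the PERK panel 8 orange points lie past 1, in the IRE1 panel 1 (*Derl3*), and in the ATF6 panel 0.

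The PERK arm and the integrated stress response held the largest differences. Of the 14 genes, 13 rose and 0 fell in Pkd2-/- cells, 8 of them past both thresholds, with a median log2 fold change of 1.24. The median of the 14 genes, taken in each library as the difference from the Wt mean, was 1.22 to 1.29 in the 4 Pkd2-/- libraries, -0.01 to 0.13 in the Pkd1-/- libraries and -0.03 to 0.04 in the Wt libraries. The same median for the ATF6 arm was 0.24 to 0.37 in Pkd2-/- and 0.07 to 0.14 in Pkd1-/- libraries, and for the IRE1 arm 0.15 to 0.30 and -0.13 to -0.04.

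Of the kinases of the pathway among the members, *Eif2ak4* rose in Pkd2-/- cells and *Eif2ak3* did not pass the test there. *Eif2ak3*, the gene of PERK, had 2456, 2242, 2122 and 2405 normalized counts in Wt, 1537, 1614, 1520 and 1633 in Pkd1-/- and 2088, 2117, 2149 and 2268 in Pkd2-/- cells. It was lower in every Pkd1-/- library (log2 fold change -0.55, SE 0.05, adjusted p = 2.18e-07) and stood at -0.10 (SE 0.05, adjusted p = 0.164) in Pkd2-/- cells, where it was the 1 gene of the arm without a call. Another annotated gene shares 8.05% of its exon bases. *Eif2ak4*, the gene of GCN2, had 456, 475, 463 and 459 in Wt, 470, 551, 492 and 563 in Pkd1-/- and 558, 534, 620 and 577 in Pkd2-/- cells, a rise of 0.30 (SE 0.07, adjusted p = 0.00212) in the latter. Outside the members, the eIF2 kinase gene *Eif2ak2* averaged 1275 in Wt, 1333 in Pkd1-/- and 1862 in Pkd2-/- cells. *Eif2ak1*, another, averaged 1948, 2410 and 1840.5. Both are named after their values were seen.

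*Atf4* (chr15:80255184-80257541, plus strand), the central factor of the response, had 7292, 7436, 7458 and 7930 normalized counts in Wt, 8506, 8777, 8189 and 8668 in Pkd1-/- and 14582, 14566, 14978 and 15146 in Pkd2-/- cells. The 3 genotypes were fully separated. The rise was 1.97-fold in Pkd2-/- (log2 fold change 0.98, SE 0.04, adjusted p = 9.3e-13) and 1.13-fold in Pkd1-/- cells (0.18, SE 0.04, adjusted p = 0.00264). ATF4 is regulated mainly at translation, which these data do not measure.

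*Ddit3* encodes CHOP, a factor linked to cell death under prolonged stress (chr10:127290774-127296288, plus strand). Its normalized counts were 1007, 1032, 987 and 944 in Wt, 1229, 1060, 918 and 952 in Pkd1-/- and 2970, 2999, 3086 and 2786 in Pkd2-/- cells. The Pkd2-/- libraries were 2.98-fold above Wt on average (log2 fold change 1.57, SE 0.07, adjusted p = 3.16e-12), whereas the Pkd1-/- libraries lay on both sides of the Wt libraries. *Mars* and another annotated gene share 4.73% of the exon bases of *Ddit3*, and the strand setting of the count was not given in the sources used here.

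*Atf5*, a factor related to ATF4 (chr7:44812256-44816658, minus strand), had 788, 873, 910 and 854 normalized counts in Wt, 668, 671, 589 and 598 in Pkd1-/- and 2439, 2409, 2150 and 1949 in Pkd2-/- cells. It was lower in every Pkd1-/- and higher in every Pkd2-/- library than in any Wt library. The log2 fold changes were -0.44 (SE 0.07, adjusted p = 0.000156) and 1.38 (SE 0.07, adjusted p = 2.4e-11). Neighbouring genes share 4.11% of its exon bases.

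*Trib3*, a pseudokinase induced by ATF4 and CHOP that in turn restrains ATF4 (chr2:152337422-152344032, minus strand), changed most. Its normalized counts were 351, 402, 399 and 351 in Wt, 350, 351, 252 and 331 in Pkd1-/- and 2196, 2227, 2038 and 2013 in Pkd2-/- cells. The Pkd2-/- libraries were 5.63-fold above Wt (log2 fold change 2.49, SE 0.09, adjusted p = 1.19e-13), which ranked 68 of 18552 tested genes from the largest rise. In Pkd1-/- cells the value was -0.24 (SE 0.09, adjusted p = 0.0673), and with the replicate number as a block the adjusted p was 0.0458.

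*Chac1*, which degrades glutathione (chr2:119351229-119354381, plus strand), had 308, 302, 283 and 229 normalized counts in Wt, 412, 296, 244 and 281 in Pkd1-/- and 1340, 1396, 1391 and 1138 in Pkd2-/- cells. The rise was 4.69-fold in Pkd2-/- cells (log2 fold change 2.23, SE 0.13, adjusted p = 7.14e-11). Pkd1-/- 1 had the highest value outside the Pkd2-/- cells, for *Ddit3* and *Asns* as well, and without it the Pkd1-/- values of *Chac1* and *Ddit3* were -0.03 and -0.02, neither of them called.

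The enzymes of serine and asparagine synthesis rose in Pkd2-/- cells. *Psat1*, of the serine pathway (chr19:15904678-15947337, minus strand), had 4690, 4868, 4602 and 4669 normalized counts in Wt, 6628, 6008, 5589 and 5855 in Pkd1-/- and 16407, 16466, 15519 and 14865 in Pkd2-/- cells. No genotype overlapped another, and the log2 fold changes were 0.35 (SE 0.05, adjusted p = 3.67e-05) in Pkd1-/- and 1.75 (SE 0.05, adjusted p = 5.15e-15) in Pkd2-/- cells. *Phgdh*, the first enzyme of that pathway, averaged 7439 ± 443 (SD, n = 4) in Wt, 8674 ± 261 in Pkd1-/- and 13456 ± 1111 in Pkd2-/- cells, rises of 0.22 (SE 0.06) and 0.85 (SE 0.06).

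*Asns*, asparagine synthetase (chr6:7675169-7693254, minus strand), had 2276, 2421, 2264 and 2084 normalized counts in Wt, 2842, 2625, 2336 and 2334 in Pkd1-/- and 6430, 6312, 6056 and 5556 in Pkd2-/- cells. The log2 fold change in Pkd2-/- cells was 1.43 (SE 0.07, adjusted p = 3.2e-12). The Pkd1-/- cells gave 0.16 (SE 0.07, adjusted p = 0.0827), and with the replicate number as a block the adjusted p was 0.0163.

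*Slc7a11*, the cystine-glutamate exchanger that supplies cysteine for glutathione (chr3:49892526-50443614, minus strand), had 105, 86, 106 and 111 normalized counts in Wt, 156, 168, 172 and 170 in Pkd1-/- and 323, 382, 294 and 319 in Pkd2-/- cells. It was the member with the fewest reads, at 7.33 normalized counts per kilobase in Wt cells. The genotypes were separated without overlap. It rose in both mutants, by a log2 fold change of 0.71 (SE 0.11, adjusted p = 5.6e-05) in Pkd1-/- and 1.68 (SE 0.11, adjusted p = 3.27e-10) in Pkd2-/- cells.

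The eIF2alpha phosphatase has an inducible and a constitutive regulatory subunit that end the response. *Ppp1r15a*, the inducible one, GADD34 (chr7:45522916-45526268, minus strand), had 1223, 1520, 1499 and 1579 normalized counts in Wt, 1132, 1384, 1391 and 1493 in Pkd1-/- and 2865, 2806, 3437 and 3454 in Pkd2-/- cells. Wt and Pkd1-/- cells overlapped, and Pkd2-/- cells were higher by a log2 fold change of 1.11 (SE 0.09, adjusted p = 1.4e-08). *Ppp1r15b*, the constitutive one, averaged 4277 ± 318 in Wt, 4511 ± 75.2 in Pkd1-/- and 6463 ± 664 in Pkd2-/- cells, a rise of 0.59 (SE 0.06, adjusted p = 4.37e-07) in the latter, with 11.44% of its exon bases shared with another annotated gene.

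*Sesn2*, which senses leucine and restrains the growth kinase mTORC1 (chr4:132492032-132510501, minus strand), had 1158, 1278, 1261 and 1293 normalized counts in Wt, 640, 630, 640 and 587 in Pkd1-/- and 1611, 1508, 1659 and 1696 in Pkd2-/- cells. Every Pkd1-/- library was below and every Pkd2-/- library above the Wt libraries. The log2 fold change was -0.997 (SE 0.06, adjusted p = 1.41e-10) in Pkd1-/-, the largest of the arm there, and 0.38 (SE 0.06, adjusted p = 2.52e-05) in Pkd2-/- cells.

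**Figure D3:**
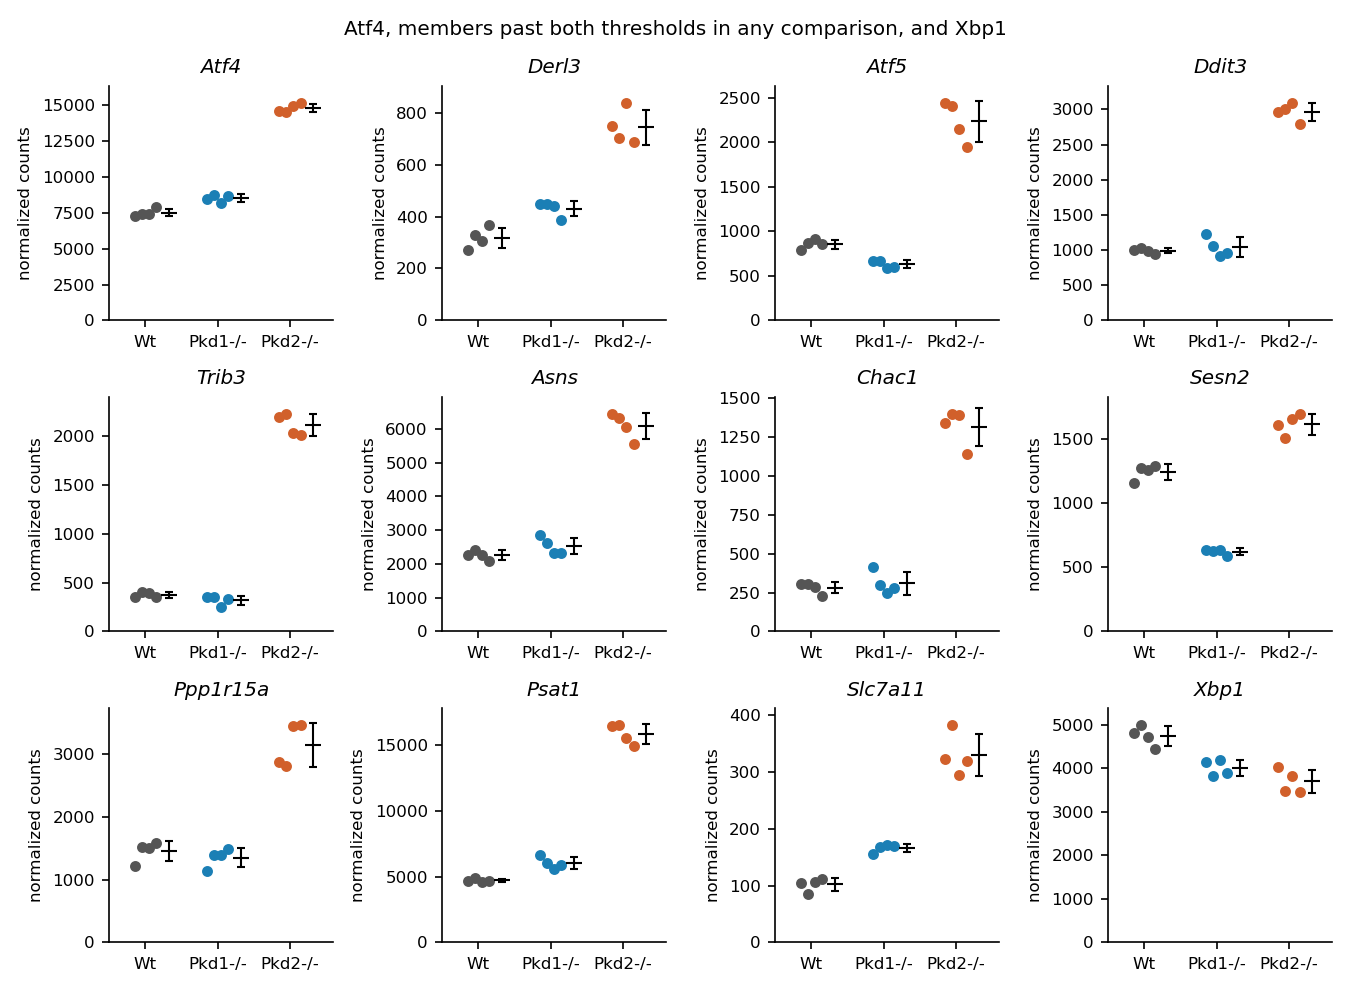
Normalized counts (vertical axis, from 0) of *Atf4*, of the 10 members past both thresholds in any comparison, and of *Xbp1*; each point is 1 library (4 per genotype) and the bar beside it is the mean ± SD. The Pkd2-/- points stand above the others in every panel but that of *Xbp1*, where they lie at 3463 to 4021 against 4441 to 4988 in Wt.

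The 9 members past both thresholds in Pkd2-/- cells lie on 6 chromosomes. Of these 9, 3 rose in Pkd1-/- cells (*Derl3*, *Psat1*, *Slc7a11*), 1 fell (*Atf5*) and 5 were not called (*Ddit3*, *Trib3*, *Asns*, *Chac1*, *Ppp1r15a*). Among tested genes averaging at least 100 normalized counts, 18.6% were higher and 18.4% lower in Pkd1-/- cells. The 9 were picked by their rise over the same 4 Wt libraries, so their Pkd1-/- counts are a description and no result. Over all 14 genes of the PERK arm, 4 rose and 3 fell in Pkd1-/- cells, with a median log2 fold change of 0.10. The genes that fell were *Eif2ak3*, *Atf5* and *Sesn2*. The 8 members past both thresholds between the mutants were *Trib3* at 2.73, *Chac1* at 2.11, *Atf5* at 1.82, *Ddit3* at 1.52, *Psat1* at 1.40, *Sesn2* at 1.37, *Asns* at 1.27 and *Ppp1r15a* at 1.22, each higher in Pkd2-/- cells. All were of the PERK arm, of which 13 of 14 were higher in Pkd2-/- than in Pkd1-/- cells and *Eif2ak4* was the exception, at 0.14 (95% interval -0.01 to 0.29). Of the ATF6 arm 7 of 13 and of the IRE1 arm 9 of 12 were higher. These arm counts stand beside 31.7% of tested genes averaging at least 100 normalized counts that were higher in Pkd2-/- than in Pkd1-/- cells.

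Over the 39 members, 17 rose in Pkd2-/- cells against both Wt and Pkd1-/- cells and were not called between Pkd1-/- and Wt. A further 10 rose in both mutants against Wt, 6 of them further in Pkd2-/- than in Pkd1-/- cells. The direction was opposite in the mutants for 3 members, *Atf5*, *Sesn2* and *Dnajb9*. *P4hb*, *Manf* and *Derl2* were not called in any comparison. The share of all tested genes with each of these patterns was not taken, and the comparisons share libraries. The pattern counts are therefore a description and no result about the members.

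**Figure D4:**
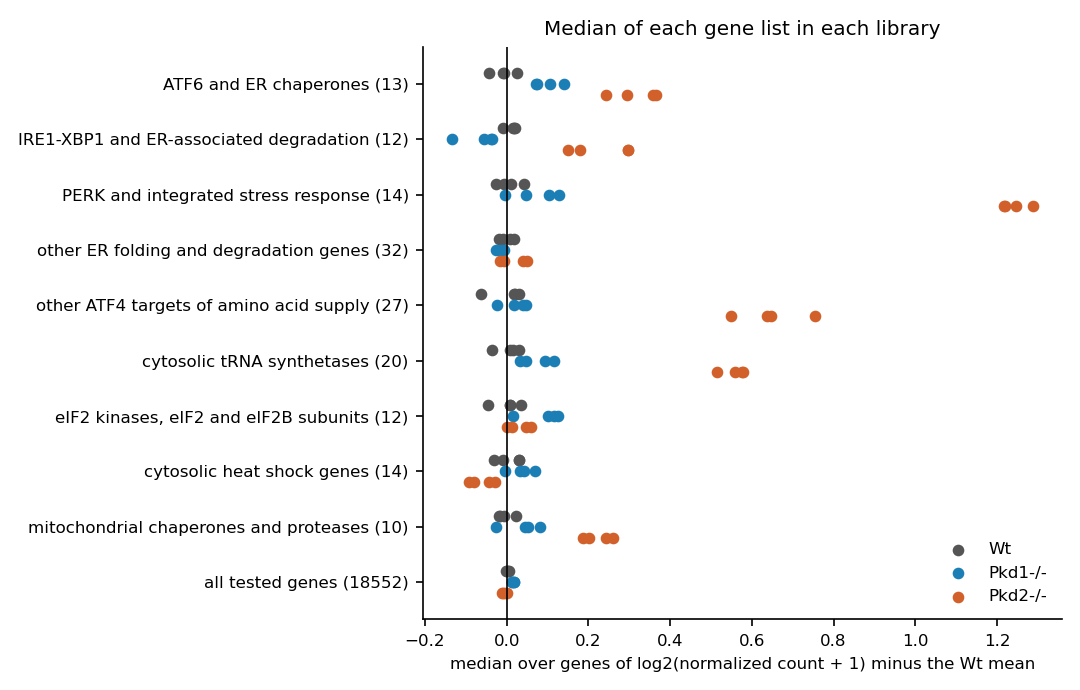
Median over the genes of each list (number of genes in brackets) of log2(normalized count + 1) minus the Wt mean (horizontal axis), with 1 point per library. The Pkd2-/- libraries of the PERK arm lie at 1.22 to 1.29, and the medians of all 18552 tested genes lie near 0 in every library.

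Genes linked to the same pathways but outside the members were drawn from 6 further lists of 117 genes in all, 115 of them tested. These lists too were chosen with earlier results of these data known. Their counts stand beside 20.0% of all tested genes that were higher and 22.3% lower in Pkd2-/- than in Wt cells, or 30.2% and 29.1% of genes averaging at least 100 normalized counts, and beside 13.6% and 13.5%, or 18.6% and 18.4%, in Pkd1-/- cells. The ATF4 targets beyond the members, most of which serve amino acid uptake and synthesis, showed the widest changes. Of 27 such genes, 21 rose and 4 fell in Pkd2-/- cells, 8 and 4 of them past both thresholds, with a median log2 fold change of 0.63. The Pkd1-/- counts were 9 and 7, with a median of 0.01.

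*Gdf15*, a secreted stress hormone, had 107, 135, 164 and 150 normalized counts in Wt, 78, 70, 54 and 83 in Pkd1-/- and 1247, 1212, 1481 and 1648 in Pkd2-/- cells, a log2 fold change of 3.33 (SE 0.15, adjusted p = 1.41e-12) in the latter. *Bcat1*, the cytosolic aminotransferase of branched-chain amino acids, had 248, 228, 257 and 240 in Wt, 163, 182, 144 and 173 in Pkd1-/- and 1335, 1243, 1306 and 1453 in Pkd2-/- cells, a change of 2.45 (SE 0.08, adjusted p = 3.24e-14). Both were lower in every Pkd1-/- and higher in every Pkd2-/- library than in any Wt library.

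*Stc2*, a secreted glycoprotein induced by ATF4 in other cells, went against the list. It had 14, 38, 26 and 24 normalized counts in Wt, 4, 1, 0 and 2 in Pkd1-/- and 3, 0, 2 and 0 in Pkd2-/- cells, which is at least 8.5-fold lower in Pkd2-/- cells against a floor of 3 counts per library. The other 3 that fell in Pkd2-/- cells were *Cth* and *Cbs*, the enzymes that make cysteine from methionine, and the cationic amino acid transporter *Slc7a3*, and they are named after their values were seen. *Cth* averaged 190 in Wt and 70.8 in Pkd2-/- cells, *Cbs* 128 and 58.0, and *Slc7a3* 7.5 and 1.75.

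The cytosolic tRNA synthetases, which load amino acids onto tRNA and many of which are ATF4 targets, fell into 2 sets. Of 20 genes, 13 rose and 1 fell in Pkd2-/- cells, with a median of 0.56 and 0 past the fold threshold. The 12 with the largest values lay between 0.50 and 0.90, and the other 8 between -0.19 and 0.16. The Pkd1-/- cells gave 5 and 0, with a median of 0.06. The split into 2 sets was made after the values were seen.

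The eIF2 kinases, eIF2 and eIF2B subunits gave 4 that rose and 0 that fell of 12 in Pkd2-/- cells, with a median of 0.02, a share near that of all genes averaging at least 100 normalized counts and no result about the list. *Eif2s2*, the beta subunit of eIF2, was the single one past both thresholds, with 3279, 2811, 2854 and 2996 normalized counts in Wt, 3497, 3307, 3052 and 3277 in Pkd1-/- and 5921, 6316, 5946 and 5868 in Pkd2-/- cells and a log2 fold change of 1.01 (SE 0.05, adjusted p = 2.34e-11). The Pkd1-/- cells gave 2 of each.

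Of 32 tested ER folding and degradation genes beyond the members, 8 rose and 5 fell in Pkd2-/- cells and 5 rose and 8 fell in Pkd1-/- cells, with medians of 0.03 and -0.02. In Pkd2-/- cells the share that rose was near that of all tested genes and is no result about the list. The cytosolic heat shock genes, which answer to unfolded protein outside the ER, gave 6 that rose and 6 that fell of 14 in Pkd2-/- and 4 and 1 in Pkd1-/- cells, with medians of -0.06 and 0.03. Of the 10 mitochondrial chaperones and proteases, 6 rose and 0 fell in Pkd2-/- cells with a median of 0.22, and 2 rose and 0 fell in Pkd1-/- cells. None of these 3 lists had a gene past both thresholds against Wt.

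**Figure D5:**
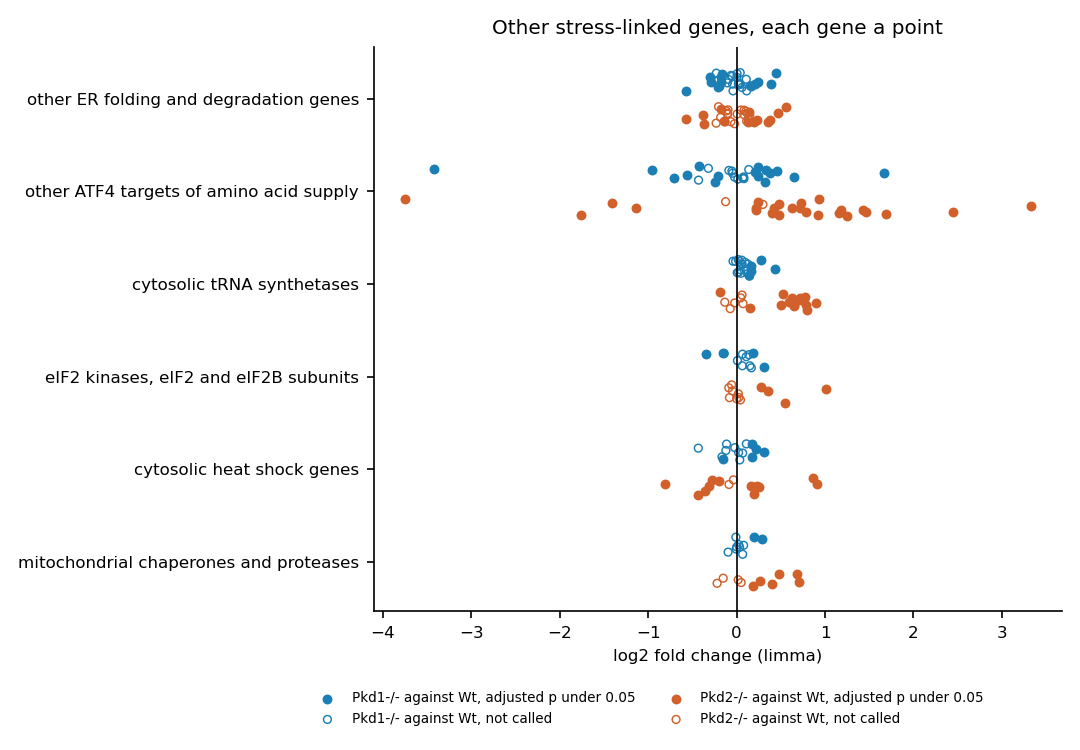
Log2 fold change against Wt (horizontal axis) of each tested gene of the 6 further lists, with Pkd1-/- in blue, Pkd2-/- in orange, and filled points at an adjusted p under 0.05; vertical position within a list carries no meaning. The ATF4 targets reach from -3.75 to 3.33 in Pkd2-/- cells. There 12 tRNA synthetases lie at 0.50 to 0.90 and the other 8 at -0.19 to 0.16, a split made after the values were seen.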

How the data were processed

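RNA of 12 mIMCD3 cultures was analysed, 4 per genotype. Per the study's methods and the submitters' processing notes, reads were trimmed with Trim Galore, aligned to mm10 with HISAT2, counted per gene with HTSeq and scaled with DESeq2. The deposited values are normalized counts that the authors rounded to whole numbers, handled here as a score and not as raw counts, so no count model was run, and the strand setting and raw depth are not given in the sources used here. All 12 columns were used and 0 left out, and 0 pairs of libraries were identical. IDs were named with GENCODE M21, which held 47223 of 47642.

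limma 3.58.1 in R 4.3.3 (eBayes with trend) was fitted to log2(normalized count + 1) over all 12 libraries for 18552 genes whose mean reached 1, with Benjamini-Hochberg adjustment over all of them. Calls needed an adjusted p under 0.05, and the fold threshold was a log2 fold change of 1. A log2 fold change on this scale understates changes of low genes. Tables and figures were made in Python 3.11.15 with pandas 2.3.3. The fit was tested on simulated data. The members, arms and lists were chosen with earlier results of these data known. Per-library values are given for the sensors and factors, for members past both thresholds, for the largest change of each arm and, named after their values were seen, for *Herpud1* and *Dnajb9*; in the further lists at most 3 genes past both thresholds were named by rule. Alternatives were other pseudocounts, filters and scalings, a replicate block, no variance trend, fits of 2 genotypes and each library left out.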

Additional observations from a re-analysis of the deposited data

Results flagged for a closer look

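In 4 of 117 groups of 4 libraries, 1 library lay far from the other 3 by Dixon's test, where chance alone flags about 1 group in 20. All 4 were Pkd1-/- groups of the IRE1 arm. *Dnajb9* had 1263 normalized counts in Pkd1-/- 4 against 1379 to 1394 in the others, *Edem2* had 1352 in Pkd1-/- 1 against 1256 to 1260, *Derl2* had 2163 in Pkd1-/- 2 against 2301 to 2318, and *Derl3* had 386 in Pkd1-/- 4 against 442 to 447. They came from 3 different libraries.

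The change against Wt had opposite directions in the mutants, with a call in each, for 3 members. The share of all tested genes with such a pattern was not taken. The difference between the 2 changes, which is the comparison of Pkd2-/- with Pkd1-/- cells, was 0.45 for *Dnajb9*, 1.82 for *Atf5* and 1.37 for *Sesn2* on the log2 scale, each past the adjusted threshold in limma.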

How the results depend on the processing

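Of 2457 member values under alternatives, 2405 kept direction and side of the threshold. These are refits of largely the same data, and of 117 pairs of member and comparison 94 kept both in every alternative. The count of members higher in Pkd2-/- than in Wt cells was 29 to 31 and of those past both thresholds 9 to 10 in every alternative run. The count of lower members past both thresholds in Pkd1-/- cells was 1 in place of 0 under TMM rescaling (*Sesn2*), and 0 to 1 with each library left out. The count of members lower in Pkd2-/- than in Pkd1-/- cells was 2 under upper quartile rescaling, and 0 to 1 with each library left out.

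Correlations of deviations between libraries with the same replicate number ran from -0.07 to 0.20. Replicate 4 matched replicate 4 best in every pair of genotypes (0.088, 0.2 and 0.167), and the other numbers mostly did not match. Whether the replicate numbers pair the libraries was therefore not settled. With the number as a replicate block, 13 members were higher and 9 lower in Pkd1-/- than in Wt cells, 31 and 1 in Pkd2-/- cells, and 1 was lower in Pkd2-/- than in Pkd1-/- cells.

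In Pkd1-/- cells *Canx* passed the threshold as lower under the mean of 10 filter, TMM and the block, and *Pdia3* as higher under that filter and the block.

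Signs turned in values near 0 that were not called. *Pdia4* in Pkd1-/- cells was -0.008 under TMM, and under upper quartile rescaling *Manf* in Pkd2-/- cells was -0.012 and *Sdf2l1* between the mutants -0.021. With each library left out, Pkd1-/- values ran from -0.011 to 0.012 for *Pdia4*, -0.002 to 0.034 for *P4hb*, -0.059 to 0.004 for *Dnajc3*, -0.078 to 0.004 for *Edem1*, -0.025 to 0.115 for *Ddit3* and -0.031 to 0.22 for *Chac1*. Pkd2-/- values ran from -0.033 to 0.003 for *P4hb*, -0.013 to 0.069 for *Manf* and -0.046 to 0.04 for *Edem2*. Between the mutants they ran from -0.004 to 0.062 for *Sdf2l1* and -0.082 to 0.001 for *Manf*. The cause was not tested. Raw depth is unknown, so no counting interval was given.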
